A study of Oryctolagus cuniculus with 49 samples.

Results

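The interleukin and tumour necrosis factor families, with the colony stimulating factors and the receptors of all of them, were followed in the iris and ciliary body of rabbit eyes after lens surgery. Members were the gene symbols of the iris table that begin with IL and a digit, with TNFSF, with TNFRSF or with CSF and a digit, without IL6, TNFRSF1A and TNFRSF1B. The rule found 44 of the 12967 gene symbols in the table. Of these, 14 were ligands, 28 were receptors and 2 were neither, namely the soluble binding protein IL18BP and the secreted enzyme IL4I1. IL1RN, the antagonist of the interleukin 1 receptor, was counted with the ligands.

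Every group was of the New Zealand white breed of rabbit, with no genetic change named. Operated eyes had undergone lensectomy with insertion of an artificial intraocular lens (IOL), per the series' text, and the labels call the others unoperated. The 26 libraries of total RNA fell into 5 groups, of which 3 were juvenile: unoperated at 5 weeks of age (7 libraries), operated at 5 weeks (3) and operated at 6.5 weeks (3). The adult groups, at 6 months, held 7 unoperated and 6 operated libraries. Each library carries a number of its own in the labels, and p-values measure the spread between these libraries. The labels used here do not state how long after surgery the tissue was taken. The operated 6.5-week group has no unoperated group of its age, so the mean of both operated juvenile groups was set against unoperated 5-week eyes, and surgery and growth cannot be told apart for the 6.5-week eyes.

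Interleukins and TNF ligands are small secreted or membrane-bound proteins by which immune and tissue cells signal to each other, and colony stimulating factors maintain and activate myeloid cells. Most interleukin receptors are assembled from a specific chain and a shared chain, and several proteins of the families do not signal but block, such as receptor antagonists, binding proteins and decoy receptors. The iris and ciliary body hold vessels, stroma, muscle, pigmented and secretory epithelia and resident macrophages, and in the healthy eye inflammation there is held low by a barrier between blood and aqueous humour.

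Levels are FPKM, a count of sequenced fragments corrected for how long the transcript is and how many fragments of the library were mapped, summed over the listed transcripts of a symbol, so they can be compared between genes. The listed transcripts summed to between 412936 and 504202 FPKM per library, and the number of reads behind a value is not known. At 6 months these totals did not overlap, at 431241 to 456586 FPKM without and 476369 to 504202 FPKM with surgery. At 5 weeks they were 412936 to 438564 FPKM without and 437259 to 467769 FPKM with surgery, and 452142 to 490542 FPKM in operated 6.5-week eyes. The main fit did not rescale the libraries. Pigment cell markers (7 of 7 measured) summed to between 1228 and 3498 FPKM and ciliary epithelium markers (7 of 9 measured) to between 985.4 and 4578 FPKM over the libraries. Some libraries stood apart. Replicate 3 of the operated 5-week group had 111.5 FPKM summed over 4 measured T and NK cell markers against 5.3 and 5.32 in the other members of its group. It is numbered in the labels after the 6-month libraries, as are unoperated 5-week replicates 6 and 7, and replicate 6 had the most T and NK cell marker RNA of its group (11.96 FPKM). RNA of the lens crystallin CRYAA exceeded 1000 FPKM in 8 libraries of 4 groups. Differences are given as log2 of FPKM plus 0.5 with the standard error (SE) of a limma fit over all libraries, fold changes are on the same scale, and a gene is said to have risen, fallen or changed where the p adjusted over all 12967 symbols was under 0.05.

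Every listed transcript exceeded 1 FPKM in all libraries of at least 1 group, so a cytokine that is low everywhere could not be seen. For 38 members an unoperated group alone met that condition. The other 6 were in the table only because of operated eyes: the ligands IL1RN and IL10, the receptors CSF2RB, IL21R and IL2RG, and IL4I1. For these 6 a higher value after surgery was built into their selection.

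After surgery more ligands and receptors rose than fell at both ages. At 6 months 20 of the 44 members rose and 6 fell, where 16.0% of all symbols rose and 30.1% fell. In juveniles 22 members rose and 5 fell, where 16.5% of all symbols rose and 20.8% fell. Of the ligands, 6 of 14 rose and 4 fell at 6 months, and 8 rose and 2 fell in juveniles. Of the receptors, 12 of 28 rose and 2 fell at 6 months, and 12 rose and 3 fell in juveniles. The share that rose was thus 42.9% in either class at 6 months, and 57.1% of ligands against 42.9% of receptors in juveniles. The difference between the classes was not tested. Without the 3 libraries richest in T and NK cell marker RNA for their group, a choice made after seeing the data, 21 members rose and 6 fell at 6 months and 21 rose and 5 fell in juveniles. Without the 3 late-numbered 5-week libraries 21 rose and 5 fell in juveniles.

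The median log2 difference at 6 months was 0.31 over ligands and 0.27 over receptors, beside a median of −0.11 over all symbols. In juveniles it was 0.77 over ligands and 0.23 over receptors, beside −0.06 over all symbols. Among the 35 members above 1 FPKM in every unoperated 6-month library, 14 rose and 6 fell (4 and 4 of 12 ligands, 9 and 2 of 22 receptors), where 14.4% of all such symbols rose and 31.9% fell. Among the 32 members above 1 FPKM in every unoperated 5-week library, 12 rose and 5 fell in juveniles (4 and 2 of 10 ligands, 8 and 3 of 22 receptors), where 14.4% rose and 22.1% fell.

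Of the rises, 19 were found at both ages, namely 6 ligands (CSF1, IL10, IL1RN, IL32, TNFSF13B, TNFSF4), 11 receptors (CSF1R, CSF2RA, CSF2RB, IL10RA, IL10RB, IL13RA1, IL17RA, IL1R1, IL21R, IL4R, TNFRSF12A) and both other members. IL17D, TNFSF13, IL11RA and IL17RD fell at both ages. No member rose at 1 age and fell at the other, and 14 members (2 ligands and 12 receptors) passed the test at neither. The map of all members by library shows these blocks and the libraries that depart from their group.

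**Figure D1:**
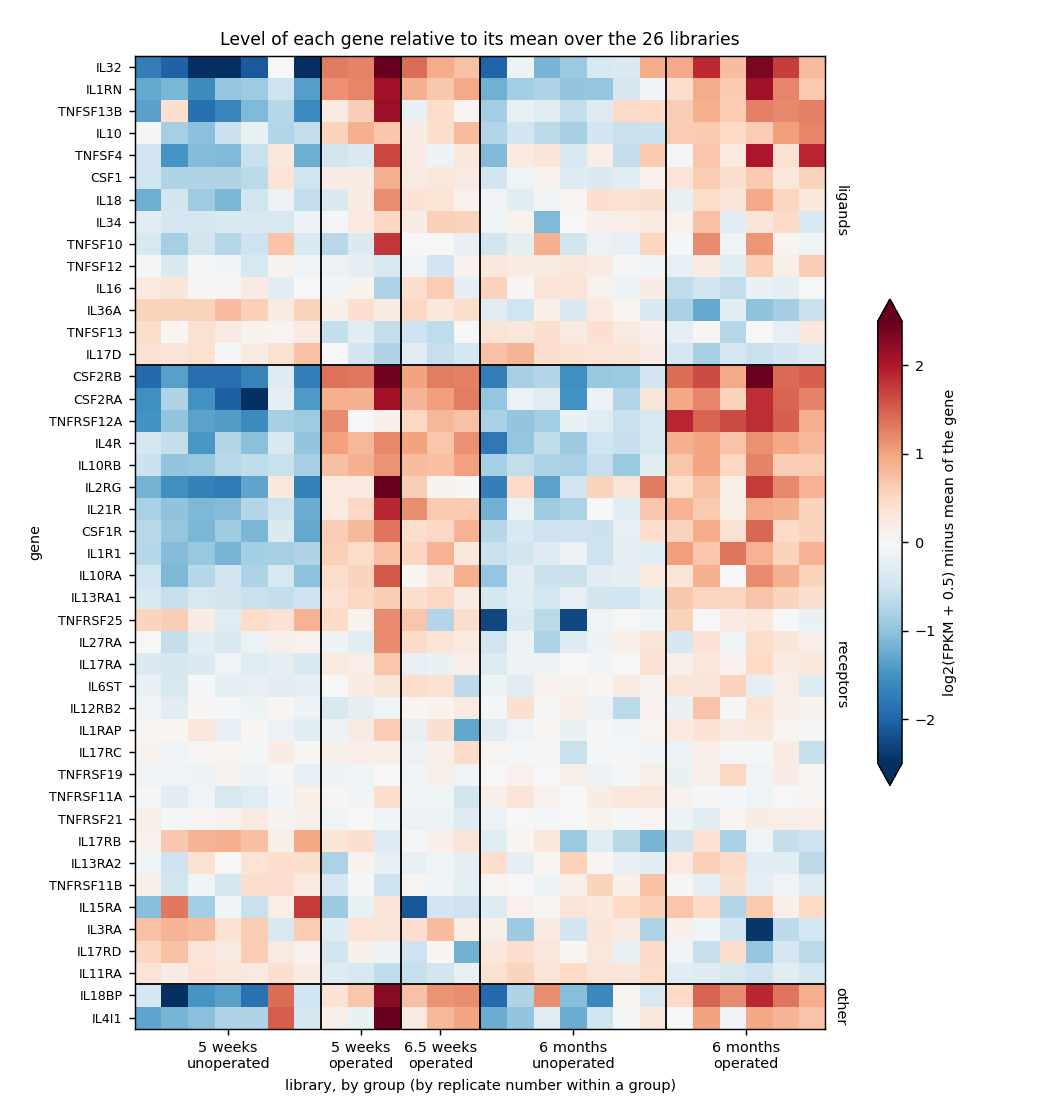
Each row is a member and each column a library, by group; colour gives log2(FPKM + 0.5) minus the mean of the gene over the 26 libraries, with red above and blue below the mean. The upper ligands and receptors are blue in unoperated and red in operated groups, IL11RA, IL17D and TNFSF13 show the reverse, and replicate 3 of the operated 5-week group is the highest of its group for IL32, IL2RG and CSF2RB.

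Several of these genes are expressed by immune cells, and some markers of such cells rose in the same comparisons. Over all symbols 16.0% rose and 30.1% fell at 6 months, and 16.5% rose and 20.8% fell in juveniles. Of 12 measured macrophage and monocyte markers that are not members, 11 rose at 6 months and 12 in juveniles. Their summed level had medians of 76.8 FPKM (63.31 to 162.2) in unoperated 5-week, 361.2 (331.7 to 816.3) in operated 5-week, 336.9 (336.4 to 419.2) in operated 6.5-week, 129.5 (77.05 to 227.7) in unoperated 6-month and 473.2 FPKM (283.9 to 774.5) in operated 6-month eyes. All 4 measured neutrophil markers (of 11 listed) rose at both ages, from sums of 0.62 to 7.67 FPKM over all unoperated eyes to 17.19 to 85.66 FPKM over all operated eyes. Their sum was as low as 1 FPKM in an unoperated 5-week and 0.62 FPKM in an unoperated 6-month library. No neutrophil marker thus met the listing condition through an unoperated group, so a rise was built into their selection. Of 4 T and NK cell markers 0 rose at 6 months and 3 in juveniles, and of 2 B and plasma cell markers 0 rose at 6 months and 2 in juveniles. The T and NK cell sum was as low as 0.25 FPKM in an unoperated 5-week and 1.43 FPKM in an unoperated 6-month library. At most 1 T and NK cell marker thus met the listing condition through an unoperated group. For the others a higher value after surgery was built into their selection. Of 9 endothelial markers 7 rose and 1 fell at each age, while of 7 ciliary epithelium markers 5 fell and 1 rose, and of 7 pigment cell markers 7 fell at 6 months and 6 in juveniles. Among 5 smooth muscle markers 0 rose and 3 fell at 6 months, and 1 rose and 2 fell in juveniles. Among 5 stroma markers 2 rose and 1 fell at 6 months, and 1 rose and 3 fell in juveniles. Among 4 Schwann cell and nerve markers 0 rose and 3 fell at 6 months, and 0 changed in juveniles. The part of these lists in the differences below was not tested. In tissue RNA, more cells of a type and more RNA per cell cannot be told apart.

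IL1RN blocks the receptor that IL1A and IL1B share, and rose at both ages. In unoperated 5-week eyes it had a lowest, median and highest level of 0.26, 0.53 and 1.08 FPKM. Operated eyes had 4.55, 4.78 and 9.25 FPKM at 5 weeks and 3.72, 3.15 and 3.86 FPKM at 6.5 weeks. Every operated juvenile eye thus lay above every unoperated one. At 6 months the levels were 0.49, 0.77 and 1.66 FPKM without and 2.6, 3.45 and 9.39 FPKM with surgery, again without overlap, a log2 difference of 1.75 (SE 0.24, adjusted p = 1.95e-06). Because IL1RN was listed only through operated eyes, a higher value after surgery was built into its selection. Operated replicate 4 held the 9.39 FPKM, and the other operated 6-month eyes stayed at 4.78 FPKM or less.

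IL1R1, the signalling receptor itself, was the more abundant transcript and also rose. It had 15.38, 19.34 and 21.4 FPKM (lowest, median, highest) in unoperated 5-week eyes. After surgery it had 53.45, 48.85 and 58.45 FPKM at 5 weeks and 51.62, 64.42 and 42.18 FPKM at 6.5 weeks, all above the unoperated range. At 6 months it went from 23.71, 28.09 and 31.77 FPKM to 52.14, 64.77 and 90.2 FPKM. The log2 difference was 1.26 (SE 0.11, adjusted p = 2.98e-09) at 6 months and 1.48 (SE 0.11, adjusted p = 2.57e-10) in juveniles, or 2.39-fold and 2.79-fold. IL1RAP, the accessory chain that IL1R1 needs to signal, had means of 2.78 ± 0.264 (SD, n = 7) and 3.44 ± 0.401 FPKM (SD, n = 6) at 6 months without and with surgery and did not pass the test at either age.

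The rise of IL1R1 was unequal over its 3 listed transcripts, which was examined after the values had been seen. Variant X2 carried most of the level in unoperated eyes, with 15.45 ± 1.57 FPKM at 5 weeks and 20.5 ± 2.4 FPKM at 6 months (SD, n = 7 each). It had 20.93 ± 2.5 FPKM (n = 3) in operated 5-week, 30.23 ± 5.09 FPKM (n = 3) in operated 6.5-week and 32.82 ± 11 FPKM (n = 6) in operated 6-month eyes. Variant X4 went from 1.33 ± 1.18 FPKM in unoperated to 20.17 ± 3.99 FPKM in operated 5-week eyes, and from 3 ± 0.936 to 19.02 ± 9.56 FPKM at 6 months. Variant X1 went from 1.93 ± 1.57 to 12.49 ± 6.69 FPKM at 5 weeks and from 3.94 ± 1.02 to 15.29 ± 8.42 FPKM at 6 months.

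The share of X2 in the summed level was 74.7 ± 2.96% (69.8 to 78.7%) in unoperated and 49.9 ± 17.5% (34.2 to 73.3%) in operated 6-month eyes, by an exact permutation test, two-sided, p = 0.0035 and adjusted p = 0.0385 over 22 such tests of 11 members. In juveniles it was 82.9 ± 4.77% (73.4 to 87.7%) against 49.5 ± 18% (36.4 to 84.9%), with the same exact permutation p. Of the other members with several transcripts, TNFRSF19 passed in juveniles, where its main transcript made up 50.1 ± 6.81% without and 35.2 ± 10.4% with surgery (exact permutation test, adjusted p = 0.0427). When the most abundant transcript alone was kept, the log2 difference of IL1R1 was 0.61 at 6 months and 0.68 in juveniles, still past the test. Reads common to the variants were shared out by the authors' estimation, so levels of single variants are less certain than their sum.

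**Figure D2:**
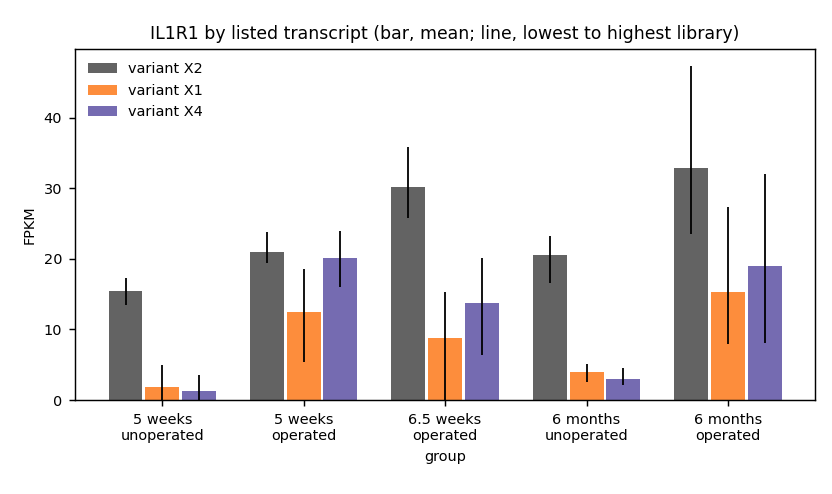
Mean FPKM of the 3 listed IL1R1 transcripts in each of the 5 groups, with lines from the lowest to the highest library (n = 7, 3, 3, 7 and 6). Variant X2 leads in unoperated eyes, and variants X1 and X4 are near the base line there and reach means of 8.78 to 20.17 FPKM in operated groups.

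IL18, a relative of interleukin 1 that is stored in tissue cells, passed the test in juveniles and not at 6 months. Unoperated 5-week eyes had 8.83, 13.64 and 19.17 FPKM, and operated eyes had 16.53, 24.19 and 48.35 FPKM at 5 weeks and 27.54, 27.15 and 22.99 FPKM at 6.5 weeks. A single operated eye fell inside the unoperated range, and the log2 difference was 1.01 (SE 0.21, adjusted p = 0.000478). At 6 months the levels were 17.38, 22.22 and 28.79 FPKM without and 18.62, 27.77 and 41.52 FPKM with surgery, a log2 difference of 0.27 (SE 0.21, adjusted p = 0.312). The difference between the ages was −0.75 (95% confidence interval −1.36 to −0.14, adjusted p = 0.268), so an unequal response was not shown.

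IL18BP, the soluble protein that binds IL18, rose at both ages, by a log2 difference of 1.86 (SE 0.66, adjusted p = 0.0247) at 6 months and 2.35 (SE 0.66, adjusted p = 0.00736) in juveniles. Its unoperated levels were widely scattered, from a listed 0 to 36.58 FPKM at 5 weeks and from 3.16 to 31.17 FPKM at 6 months. Operated levels ran from 17.52 to 66.96 FPKM in juveniles and from 19.39 to 51.31 FPKM at 6 months. The 6-month call was lost without operated replicate 4 (adjusted p = 0.0565), unoperated replicate 1 (adjusted p = 0.0544) or unoperated replicate 5 (adjusted p = 0.051), and the juvenile call without the libraries rich in CRYAA (log2 difference 1.41, adjusted p = 0.0949).

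IL36A, an epithelial cytokine of the interleukin 1 family, went the other way. It fell at 6 months from 6.23, 7.49 and 10.87 FPKM to 3.46, 4.895 and 7.38 FPKM, a log2 difference of −0.64 (SE 0.14, adjusted p = 0.000531) with some overlap of the groups. In juveniles unoperated eyes had 10.58, 13.78 and 15.73 FPKM and operated eyes 9.95 to 13.21 FPKM, a log2 difference of −0.23 (SE 0.14, adjusted p = 0.207).

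IL10, which restrains macrophages and other myeloid cells, rose together with both chains of its receptor. IL10 itself was scarce and was listed only through operated eyes, so a higher value after surgery was built into its selection. It had 0.08, 0.29 and 0.66 FPKM in unoperated 5-week eyes and 1.27, 1.74 and 1.45 FPKM after surgery at 5 weeks, with 0.87, 1.14 and 1.58 FPKM at 6.5 weeks. In 6-month eyes it had 0.18, 0.32 and 0.36 FPKM without and 1.2, 1.375 and 2.29 FPKM with surgery. The groups did not overlap at either age, with log2 differences of 1.38 (SE 0.16, adjusted p = 1.49e-07) at 6 months and 1.16 (SE 0.16, adjusted p = 2.58e-06) in juveniles. At levels this low the value added before the logarithm holds the difference down: with 0.1 FPKM added they were 2.10 and 1.85.

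IL10RB, the chain that IL10 shares with related cytokines, had 5.26, 6.56 and 7.32 FPKM in unoperated 5-week eyes. Operated eyes had 18.6, 20.51 and 24.22 FPKM at 5 weeks and 18.83, 18.72 and 22.72 FPKM at 6.5 weeks, all above the highest unoperated eye. At 6 months it went from 5.49, 6.13 and 8.86 FPKM to 15.79, 17.55 and 26.37 FPKM, a log2 difference of 1.47 (SE 0.12, adjusted p = 4.96e-10) against 1.62 (SE 0.12) in juveniles. IL10RA, the chain specific to IL10, rose by 1.01 (SE 0.21, adjusted p = 0.000473) at 6 months and by 1.35 (SE 0.21, adjusted p = 2.13e-05) in juveniles on the log2 scale. Its 6-month groups met, at 1.7 to 4.63 FPKM without and 3.86 to 9.27 FPKM with surgery.

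The receptor for IL4 and IL13 on cells other than lymphocytes consists of IL4R and IL13RA1, and both chains rose, with every operated eye above every unoperated eye at either age. IL4R had 3, 5.29 and 6.77 FPKM in unoperated 5-week eyes, 18.84, 16.53 and 21.51 FPKM in operated 5-week eyes and 18.76, 14.86 and 20.56 FPKM in operated 6.5-week eyes. Among 6-month libraries it had 2.26, 5.62 and 6.77 FPKM without and 15.27, 17.7 and 20.68 FPKM with surgery. The rise was 3.36-fold at 6 months (log2 1.75, SE 0.18, adjusted p = 4.2e-08) and 3.45-fold in juveniles (log2 1.78, SE 0.18, adjusted p = 4.11e-08).

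IL13RA1 had 34.71, 36.96 and 40.36 FPKM in unoperated 5-week eyes, 69.32, 77.03 and 82.17 FPKM in operated 5-week eyes and 70.44, 76.61 and 62.65 FPKM in operated 6.5-week eyes. At 6 months it went from 37.69, 39.25 and 46.44 FPKM to 70.99, 77.94 and 87.65 FPKM. Its log2 difference of 0.93 (SE 0.07) at 6 months had the smallest adjusted p of the members, 5.16e-11, and it was 0.95 (SE 0.07) in juveniles. IL13RA2, the decoy receptor for IL13, had means of 1.69 ± 0.527 (SD, n = 7) and 1.7 ± 0.73 FPKM (SD, n = 6) at 6 months and passed the test at neither age.

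The shared gamma chain IL2RG, used by IL2, IL4, IL7, IL15 and IL21, and the IL21 receptor chain IL21R are mainly lymphocyte genes and were low in most unoperated 5-week eyes. Both were listed only through operated eyes, so higher values after surgery were built into their selection. IL21R had 0.15, 0.26 and 0.57 FPKM in unoperated 5-week eyes, 1.31, 1.69 and 5.14 FPKM in operated 5-week eyes and 2.92, 1.91 and 1.9 FPKM in operated 6.5-week eyes, and rose at both ages (log2 1.05, SE 0.26 at 6 months and 1.78, SE 0.26 in juveniles). Its 6-month groups overlapped, at 0.17 to 1.95 FPKM without and 1.19 to 2.46 FPKM with surgery. IL2RG had 0.16, 0.28 and 2.21 FPKM in unoperated 5-week eyes. Operated 5-week eyes had 2.18, 2.18 and 23.54 FPKM and operated 6.5-week eyes 2.94, 1.88 and 1.8 FPKM. The 23.54 FPKM belonged to the library with the most T cell marker RNA. The juvenile rise of 2.05 (SE 0.50, adjusted p = 0.00228) held without that library, as it did whichever single library was left out. It was lost when operated 6.5-week eyes alone were compared (1.51, adjusted p = 0.0632) and without libraries rich in CRYAA (1.91, adjusted p = 0.0633). At 6 months IL2RG was not uniformly low without surgery: it had 0.19, 2.3 and 5.01 FPKM without and 1.99 to 7.02 FPKM with surgery, an overlap. It differed there by 0.98 (SE 0.50, adjusted p = 0.111), and it passed without unoperated replicate 7 (1.21, adjusted p = 0.05), without the 3 libraries rich in T cell marker RNA (1.21, adjusted p = 0.00588) and with lens and photoreceptor covariates (1.49, adjusted p = 0.00908). IL15RA and IL3RA passed at neither age.

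IL4I1, a secreted enzyme that oxidises aromatic amino acids and is made by myeloid cells, had means of 0.843 ± 0.557 FPKM (SD, n = 7) in unoperated and 2.39 ± 0.871 FPKM (SD, n = 6) in operated 6-month eyes. It rose by 1.15 (SE 0.42, adjusted p = 0.0294) at 6 months and 1.32 (SE 0.42, adjusted p = 0.0162) in juveniles on the log2 scale. A rise of IL4I1 was built into its selection, as it was listed only through operated eyes. The 6-month call was lost without any 1 of operated replicates 2, 4 and 5 and unoperated replicates 1, 2 and 4 (adjusted p = 0.0523 to 0.0638). The juvenile call was lost without operated 5-week replicate 3 (0.90, adjusted p = 0.0715), which held 10 FPKM beside 1.56 and 1.15 FPKM in its group, and also with the compared groups alone (adjusted p = 0.0599), without libraries rich in CRYAA (adjusted p = 0.191), and with operated 5-week (adjusted p = 0.0538) or 6.5-week eyes alone (adjusted p = 0.0704).

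The 4 listed members of the colony stimulating factor family rose at both ages, where 16.0% of all symbols rose at 6 months and 16.5% in juveniles, and CSF2RB among them was listed only through operated eyes. CSF1, which keeps macrophages alive, had 5.31, 5.62 and 11.81 FPKM in unoperated 5-week eyes, 10.63, 10.81 and 17.52 FPKM in operated 5-week eyes and 10.98, 11.47 and 10.95 FPKM in operated 6.5-week eyes. The 11.81 FPKM was unoperated replicate 6, and the remaining unoperated eyes stayed at 6.46 FPKM or less. At 6 months CSF1 went from 6.56, 7.55 and 10.02 FPKM to 11.47, 13.25 and 14.97 FPKM without overlap. The log2 difference was 0.67 (SE 0.15, adjusted p = 0.000842) at 6 months and 0.85 (SE 0.15, adjusted p = 8.65e-05) in juveniles.

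CSF1R, the receptor for CSF1 and a macrophage marker itself, rose as well. It had 11.69, 14.6 and 22.53 FPKM in unoperated 5-week eyes, 45.17, 51.59 and 74 FPKM in operated 5-week eyes and 39.62, 42.19 and 53.77 FPKM in operated 6.5-week eyes. In 6-month eyes it went from 17.66, 20.32 and 38.94 FPKM to 38.14, 43.44 and 79.65 FPKM, where unoperated replicate 7 at 38.94 FPKM made the groups meet. The fold was 2.11 at 6 months (log2 1.07, SE 0.18, adjusted p = 4.69e-05) and 3.24 in juveniles (log2 1.70, SE 0.18, adjusted p = 1.11e-07). IL34, the second ligand of CSF1R, rose in juveniles by 0.70 (SE 0.18, adjusted p = 0.00417) on the log2 scale, from 6.27 to 7.77 FPKM without to 8.32 to 13.45 FPKM with surgery, a call lost with operated 5-week eyes alone (0.58, adjusted p = 0.0629). At 6 months it differed by 0.25 (SE 0.18, adjusted p = 0.282).

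CSF2RA and CSF2RB form the receptor for CSF2, and CSF2RB also serves IL3 and IL5. CSF2RB had 0.41, 0.57 and 2.32 FPKM in unoperated 5-week eyes, 8.56, 8.24 and 18.25 FPKM in operated 5-week eyes and 6.57, 8.06 and 7.9 FPKM in operated 6.5-week eyes. Among 6-month libraries it had 0.56, 1.35 and 2.03 FPKM without and 6.32, 9.135 and 18.96 FPKM with surgery. It rose by 2.58 (SE 0.26, adjusted p = 3.16e-08) at 6 months and is one of the members listed only through operated eyes. CSF2RA rose by 1.71 (SE 0.37, adjusted p = 0.000611) at 6 months and 2.72 (SE 0.37, adjusted p = 3.24e-06) in juveniles on the log2 scale, without overlap of the groups. IL3RA, the IL3 chain that pairs with CSF2RB, had means of 2.02 ± 0.822 FPKM (SD, n = 7) without and 1.44 ± 0.834 FPKM (SD, n = 6) with surgery at 6 months.

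**Figure D3:**
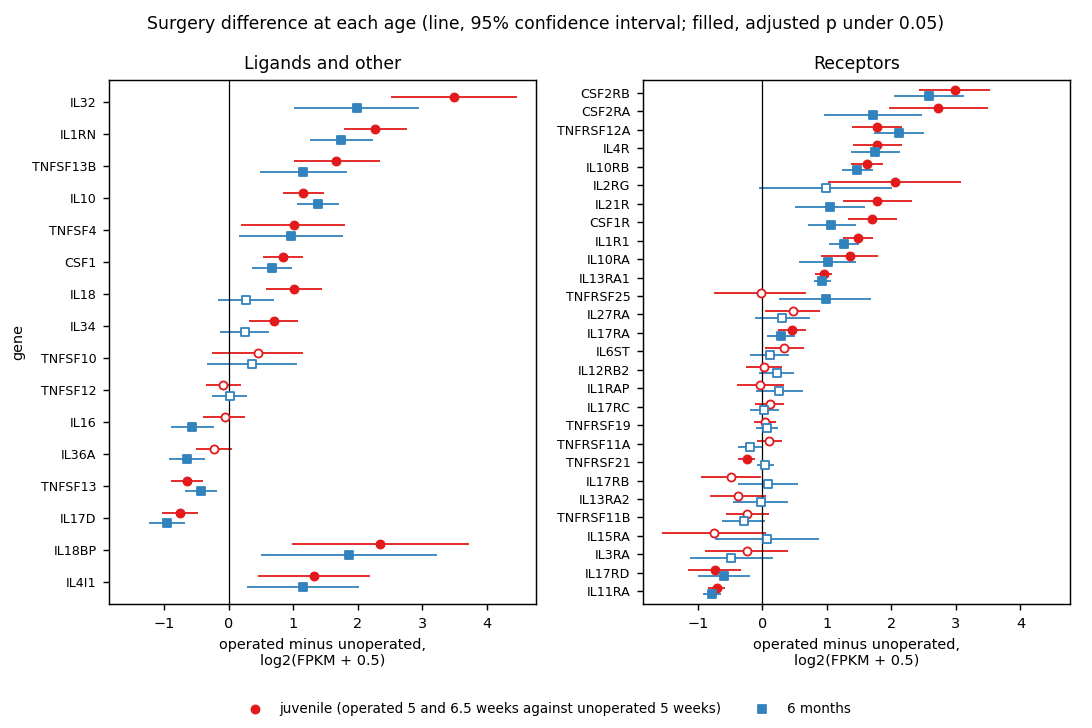
Operated minus unoperated difference of log2(FPKM + 0.5) with its 95% confidence interval for each member, in juveniles (red circles) and at 6 months (blue squares); filled symbols passed the test. IL32, CSF2RA, TNFRSF12A, IL4R and IL10RB lie to the right of 1 at both ages, IL17D, IL11RA, IL17RD and TNFSF13 to the left of 0 at both ages, and the intervals of the ages overlap for most genes.

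The receptors that signal through gp130 did not move together. IL6ST, which is gp130, was among the most abundant members and did not pass the test, with 66.87, 74.42 and 86.73 FPKM in unoperated 5-week eyes, 88.97, 102.58 and 109.54 FPKM in operated 5-week eyes and 119.65, 115.36 and 55.9 FPKM in operated 6.5-week eyes. The last of these lay below every unoperated eye. The juvenile difference was 0.34 (SE 0.15, adjusted p = 0.0714) and became 0.52 (adjusted p = 0.0015) without that library. The 6-month difference was 0.11 (95% confidence interval −0.19 to 0.41, adjusted p = 0.57), and its sign turned under equal-sum scaling (−0.04).

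IL11RA, the chain that binds IL11, was about as abundant as IL6ST and fell. It had 86.45, 92.84 and 102.1 FPKM in unoperated 5-week eyes, 60.85, 57.37 and 48.79 FPKM in operated 5-week eyes and 51.06, 54.23 and 66.85 FPKM in operated 6.5-week eyes. In 6-month eyes it went from 93.54, 99.23 and 111.2 FPKM to 52.78, 58.94 and 62.17 FPKM. No operated eye reached an unoperated one at either age, with log2 differences of −0.78 (SE 0.07, adjusted p = 1.57e-09) at 6 months and −0.71 (SE 0.07, adjusted p = 9.48e-09) in juveniles. IL27RA differed by 0.31 (SE 0.21) at 6 months and 0.47 (SE 0.21, adjusted p = 0.0815) in juveniles, and passed in juveniles without operated 5-week replicate 1 (0.57, adjusted p = 0.0493) or 2 (0.60, adjusted p = 0.0304). With lens and photoreceptor covariates it passed at both ages (0.52, adjusted p = 0.0293 at 6 months and 0.50, adjusted p = 0.0322 in juveniles).

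Relatives of these chains under other symbols moved in both directions. OSMR, the oncostatin M receptor, rose from 14.4 ± 0.986 FPKM (SD, n = 7) to 32 ± 3.32 FPKM (SD, n = 6) at 6 months, a log2 difference of 1.12 (SE 0.09, adjusted p = 3.1e-10), and by 0.80 (SE 0.09) in juveniles. LIFR fell from 9.29 ± 1.1 to 5.43 ± 1.05 FPKM at 6 months, by a log2 difference of −0.73 (SE 0.16, adjusted p = 0.000671), and CNTFR from 45 ± 6.35 to 29.7 ± 9.14 FPKM, by −0.63 (SE 0.17, adjusted p = 0.0045), and both also fell in juveniles. The gp130 ligand OSM rose by 1.91 (SE 0.18) at 6 months and 1.26 (SE 0.18) in juveniles, where LIF rose as well. Of the whole list of family members under other symbols, 2 of 7 measured ligands rose and 1 fell at 6 months (3 and 1 in juveniles), and 5 of 9 receptors rose and 3 fell (5 and 2 in juveniles), beside 16.0% rising and 30.1% falling of all symbols at 6 months and 16.5% and 20.8% in juveniles.

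Among the TNF ligands, TNFSF13B (BAFF) and TNFSF13 (APRIL), which are both survival factors of B and plasma cells, went opposite ways. TNFSF13B had 0.24, 0.57 and 3.15 FPKM in unoperated 5-week eyes, 2.68, 3.68 and 11.48 FPKM in operated 5-week eyes and 1.9, 3.22 and 2.36 FPKM in operated 6.5-week eyes. At 6 months it went from 1.01, 1.71 and 3.36 FPKM to 3.66, 5.185 and 6.06 FPKM without overlap, a log2 difference of 1.16 (SE 0.32, adjusted p = 0.00514) against 1.67 (SE 0.32, adjusted p = 0.000231) in juveniles. The 3.15 FPKM was unoperated replicate 2, and the other unoperated 5-week eyes stayed at 1.16 FPKM or less.

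TNFSF13 had 24.38, 27.02 and 31.97 FPKM in unoperated 5-week eyes, 15.42, 19.23 and 15.48 FPKM in operated 5-week eyes and 16.21, 14.98 and 23.67 FPKM in operated 6.5-week eyes, so that no operated juvenile eye reached an unoperated one. At 6 months the groups overlapped, at 25.59, 28.9 and 31.84 FPKM without and 14.24, 21.98 and 28.15 FPKM with surgery. It fell by a log2 difference of −0.64 (SE 0.12, adjusted p = 0.000155) in juveniles and of −0.43 (SE 0.12, adjusted p = 0.00522) at 6 months. The 6-month call was lost without the libraries rich in CRYAA (−0.24, adjusted p = 0.126).

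TNFSF12 (TWEAK) and its receptor TNFRSF12A (Fn14), a pair linked to tissue repair, are taken side by side here. TNFSF12 had means of 30 ± 2.99 FPKM (SD, n = 7) without and 31.3 ± 8.45 FPKM (SD, n = 6) with surgery at 6 months, a log2 difference of 0.02 (95% confidence interval −0.25 to 0.29, adjusted p = 0.9, and −0.12 under equal-sum scaling), and in juveniles it differed by −0.08 (95% confidence interval −0.35 to 0.19). TNFRSF12A had 3.52, 4.29 and 6.26 FPKM in unoperated 5-week eyes, 26.83, 11.55 and 12.73 FPKM in operated 5-week eyes and 16.81, 21.03 and 19.5 FPKM in operated 6.5-week eyes. Among 6-month libraries it went from 5.56, 7.76 and 10.31 FPKM to 22.09, 35.02 and 44.39 FPKM. The groups did not overlap at either age. Its rise was 4.34-fold at 6 months (log2 2.12, SE 0.19, adjusted p = 3.14e-09) and 3.44-fold in juveniles (log2 1.78, SE 0.19, adjusted p = 7.15e-08). TNFSF12 and TNFSF13 lie side by side in mammals and can form joint transcripts, whose reads could be assigned to either.

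TNFSF4 (OX40L), a costimulator of T cells, rose at both ages, close to the threshold. It had 6.49, 8.63 and 22.83 FPKM in unoperated 5-week eyes, 13.56, 14.57 and 61.06 FPKM in operated 5-week eyes and 21.79, 17.07 and 22.95 FPKM in operated 6.5-week eyes. The 61.06 FPKM was replicate 3, and without it the juvenile difference went from 1.01 (SE 0.39, adjusted p = 0.046) to 0.66 (adjusted p = 0.173). Leaving out any 1 of 9 further juvenile libraries (unoperated replicates 1, 2, 3, 4, 5 and 7 and all 3 operated 6.5-week eyes) also lost the call, with an adjusted p of 0.0506 to 0.0897, as did leaving out the 3 late-numbered 5-week libraries (0.79, adjusted p = 0.112). The 6-month difference of 0.97 (SE 0.39, adjusted p = 0.0463) was lost without any 1 of unoperated replicates 1, 4, 5 and 6 and operated replicates 2, 4 and 6 (adjusted p = 0.0524 to 0.137). TNFSF10 (TRAIL), a death ligand induced by interferon, differed by 0.36 (SE 0.34, adjusted p = 0.405) at 6 months and 0.46 (SE 0.34, adjusted p = 0.31) in juveniles, with 117.76 FPKM in operated 5-week replicate 3 against 21.14 and 26.46 FPKM in its group.

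Of the 6 TNF receptors, 2 rose at 6 months, and 1 rose and 1 fell in juveniles, where 16.0% of all symbols rose at 6 months and 16.5% rose and 20.8% fell in juveniles. TNFRSF21 (DR6), which is abundant in neural and epithelial tissue, fell in juveniles by a log2 difference of −0.24 (SE 0.07, adjusted p = 0.0053), from 93.8 ± 4.79 FPKM (SD, n = 7) to 82.6 ± 3.24 FPKM at 5 weeks and 76.04 ± 5.885 FPKM at 6.5 weeks (SD, n = 3 each). This value was −0.37 with every library scaled to an equal sum, and the call was lost with operated 5-week eyes alone (−0.18, adjusted p = 0.11). It was also lost with its most abundant transcript alone (−0.26, adjusted p = 0.0636) and without libraries rich in CRYAA (−0.23, adjusted p = 0.108). At 6 months TNFRSF21 differed by 0.04 (SE 0.07, adjusted p = 0.625). TNFRSF25 (DR3), the receptor of a T cell costimulator, rose at 6 months by 0.98 (SE 0.35, adjusted p = 0.0244) and differed by −0.03 (SE 0.35, adjusted p = 0.95) in juveniles. Unoperated 6-month replicates 1 and 4 were listed at 0, and the other unoperated eyes held 1.02 to 1.91 FPKM beside 1.67 to 3.12 FPKM in operated ones. The 6-month call was lost without operated replicate 1 (adjusted p = 0.0524), unoperated replicate 1 (adjusted p = 0.0638) or unoperated replicate 4 (adjusted p = 0.0631), without libraries rich in CRYAA (adjusted p = 0.143), with lens and photoreceptor covariates (adjusted p = 0.0505) and with the compared groups alone (adjusted p = 0.0535). The difference was 1.63 with 0.1 FPKM added before the logarithm.

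The bone-related pair TNFRSF11A (RANK) and its decoy counterpart TNFRSF11B (osteoprotegerin) passed at neither age. TNFRSF11B differed by −0.29 (SE 0.16, adjusted p = 0.146) at 6 months and −0.24 (SE 0.16, adjusted p = 0.267) in juveniles, and TNFRSF11A by −0.19 (SE 0.09, adjusted p = 0.106) at 6 months. With every library scaled to an equal sum both fell at 6 months (−0.43, adjusted p = 0.033 and −0.32, adjusted p = 0.00685). TNFRSF11B also passed without libraries rich in CRYAA (−0.50, adjusted p = 0.0132), and TNFRSF11A with the compared groups alone (−0.19, adjusted p = 0.0462). TNFRSF19 had 19.7 ± 1.42 FPKM (SD, n = 7) without and 20.9 ± 3.71 FPKM (SD, n = 6) with surgery at 6 months and differed by 0.07 (SE 0.08) there and by 0.04 (SE 0.08) in juveniles. Under equal-sum scaling its sign turned at both ages (−0.07 and −0.09). Of the TNF receptors with other symbols, LTBR rose by 0.86 (SE 0.08, adjusted p = 1.07e-08), CD40 by 1.40 (SE 0.24, adjusted p = 3.89e-05) and FAS by 1.18 (SE 0.14, adjusted p = 3.39e-07) at 6 months, and all of them rose in juveniles too.

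**Figure D4:**
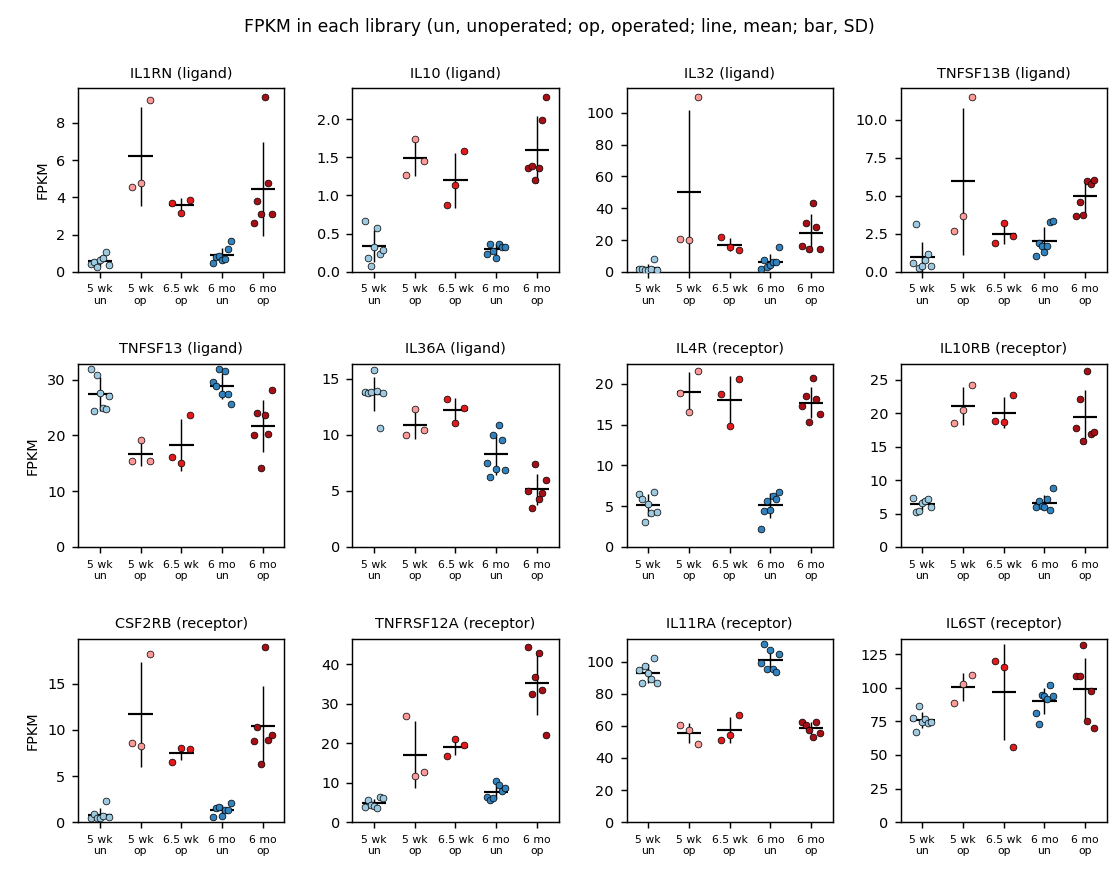
FPKM of 12 members in each library of the 5 groups, with the mean as a line and the SD as a bar; each panel has its own linear scale from 0. IL4R, IL10RB and TNFRSF12A are separated by surgery at both ages, IL11RA and, in juveniles, TNFSF13 are separated downward, and single high libraries stand out for IL32, IL1RN and CSF2RB.

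Of the 5 members of the IL17 family, 1 rose and 2 fell at each age, shares near those of all symbols at 6 months (16.0% rose and 30.1% fell). IL17D, a tissue-derived member of the family, had 2.55, 3.49 and 4.67 FPKM in unoperated 5-week eyes, 2.56, 1.76 and 1.34 FPKM in operated 5-week eyes and 2.07, 1.59 and 1.77 FPKM in operated 6.5-week eyes. At 6 months it went from 3.01, 3.46 and 5.06 FPKM to 1.25, 1.765 and 1.98 FPKM without overlap. It fell by a log2 difference of −0.95 (SE 0.13, adjusted p = 3.67e-06) at 6 months and −0.76 (SE 0.13, adjusted p = 8.11e-05) in juveniles. IL17RD, which also damps fibroblast growth factor signals, fell by −0.60 (SE 0.20, adjusted p = 0.0158) at 6 months and −0.74 (SE 0.20, adjusted p = 0.00442) in juveniles on the log2 scale. Its 6-month call was lost without operated replicate 4 (−0.48, adjusted p = 0.056), and both calls were lost when its most abundant transcript alone was kept (−0.44, adjusted p = 0.337 and −0.41, adjusted p = 0.395). The juvenile call was also lost with operated 5-week eyes alone (−0.54, adjusted p = 0.112) and without libraries rich in CRYAA (−0.62, adjusted p = 0.0636).

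IL17RA, the chain common to the IL17 receptors, rose by 0.46 (SE 0.11, adjusted p = 0.00145) in juveniles and 0.29 (SE 0.11, adjusted p = 0.0301) at 6 months. Its 6-month means were 4.72 ± 0.837 FPKM (SD, n = 7) without and 5.83 ± 0.63 FPKM (SD, n = 6) with surgery. The 6-month call was lost without operated replicate 4 (adjusted p = 0.0867), unoperated replicates 1 (adjusted p = 0.0736), 2 (adjusted p = 0.0518) or 3 (adjusted p = 0.0527), and with every library at an equal sum (0.15, adjusted p = 0.219). In juveniles it was lost when operated 6.5-week eyes alone were compared (0.24, adjusted p = 0.173). IL17RB and IL17RC passed at neither age.

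IL32, an intracellular and secreted cytokine of T cells, NK cells and epithelia, rose most of all members in juveniles. It had 0.86, 1.5 and 8.11 FPKM in unoperated 5-week eyes, 20.52, 19.75 and 109.78 FPKM in operated 5-week eyes and 21.97, 15.76 and 13.64 FPKM in operated 6.5-week eyes. In 6-month eyes it went from 1.65, 6.01 and 15.86 FPKM to 14.1, 21.96 and 43.49 FPKM, where unoperated replicate 7 reached into the operated range. The log2 difference was 3.49 (SE 0.47, adjusted p = 3.52e-06) in juveniles and 1.99 (SE 0.47, adjusted p = 0.00154) at 6 months. The highest eye of the operated 5-week group and the highest unoperated eyes of both ages were also those with the most T and NK cell marker RNA of their groups.

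IL16, a lymphocyte attractant, fell at 6 months from 1.73, 2.25 and 3.09 FPKM to 1.06, 1.405 and 1.92 FPKM, a log2 difference of −0.56 (SE 0.16, adjusted p = 0.00609). In juveniles it differed by −0.06 (SE 0.16, adjusted p = 0.777), a sign that turned without operated 5-week replicate 3 (0.07) or operated 6.5-week replicate 3 (0.06). The 6-month call was lost without the libraries rich in CRYAA (−0.41, adjusted p = 0.123). IL12RB2, a chain of the IL12 receptor, had 18.5 ± 4.05 FPKM (SD, n = 7) without and 21.5 ± 5.02 FPKM (SD, n = 6) with surgery at 6 months and passed at neither age.

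Fewer members differed with age than with surgery. Between 5 weeks and 6 months in unoperated eyes, 8 members were higher and 3 lower at 6 months, where 11.3% of all symbols were higher and 9.45% lower. IL1R1 was the clearest of the higher ones, with 15.38 to 21.4 FPKM at 5 weeks and 23.71 to 31.77 FPKM at 6 months without overlap (log2 0.54, SE 0.11, adjusted p = 0.000972). Without the libraries rich in CRYAA this call was lost (0.46, adjusted p = 0.0503). IL18 differed by 0.83 (SE 0.20, adjusted p = 0.00484), TNFRSF12A by 0.63 (SE 0.18, adjusted p = 0.015), and TNFRSF11A by 0.33 (SE 0.09, adjusted p = 0.0109). CSF1R (0.58, adjusted p = 0.0213), CSF2RA (1.05, adjusted p = 0.0378), IL32 (1.37, adjusted p = 0.0345) and TNFSF13B (0.94, adjusted p = 0.0336) complete the 8. The lower ones were IL36A (−0.70, SE 0.13, adjusted p = 0.000572), IL17RB (−1.06, SE 0.22, adjusted p = 0.00119) and TNFRSF25 (−1.22, SE 0.33, adjusted p = 0.011). IL17RB was listed only through unoperated 5-week eyes, so a lower value at 6 months was built into its selection. TNFRSF25 met the listing condition in unoperated 5-week and operated 6-month eyes, and not in unoperated 6-month eyes.

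Lens RNA was uneven over the libraries of this comparison, and some immune markers changed in it. Of 4 measured lens markers 0 changed, with a median log2 difference of −4.75. CRYAA exceeded 1000 FPKM in 4 unoperated 5-week libraries and 1 unoperated 6-month library. Without the libraries above that level 1 member (IL18) was called higher and 1 (IL36A) lower. Calls over all 12967 symbols dropped as well, from 1471 higher and 1225 lower to 279 and 318, with fewer libraries compared. Of the T and NK cell markers, 2 of 4 were higher at 6 months, of the macrophage markers 3 of 12, and of the B and plasma cell markers 2 of 2 (JCHAIN by a log2 difference of 3.48 and MZB1 by 1.52), and their part in the result was not tested. The call of CSF1R was lost without 6-month replicate 7 (0.45, adjusted p = 0.0544), that of CSF2RA without any 1 of 5-week replicates 1, 3, 4, 5 and 7 or 6-month replicates 2, 3, 5 and 7 (adjusted p = 0.0514 to 0.0844). That of IL32 was lost without any 1 of 5-week replicates 2, 3, 4, 5 and 7 or 6-month replicates 2, 5, 6 and 7 (adjusted p = 0.0538 to 0.083), and that of TNFSF13B without any 1 of 5-week replicates 1, 3, 4 and 7 or 6-month replicates 2, 6 and 7 (adjusted p = 0.0521 to 0.0764). IL36A was the only member whose call held in every alternative of this comparison.

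Among operated eyes 1 member was higher and 2 were lower at 6 months than in juveniles, where 5.87% of all symbols were higher and 9.76% lower. TNFRSF12A was higher by 0.97 (SE 0.20, adjusted p = 0.00153). IL36A was lower by a log2 difference of −1.12 (SE 0.14, adjusted p = 1.43e-05), with 9.95 to 13.21 FPKM in operated juvenile and 3.46 to 7.38 FPKM in operated 6-month eyes. IL3RA was lower by −0.94 (SE 0.32, adjusted p = 0.0497), a call that was lost without any 1 of operated 5-week replicates 2 and 3, 6.5-week replicates 1 and 2 and 6-month replicates 3, 4, 5 and 6 (adjusted p = 0.058 to 0.126). Among other settings, the limma call was also lost with the compared groups alone (adjusted p = 0.153) and without trend or robust moderation (adjusted p = 0.0515). IL3RA met the listing condition only in juvenile groups, so a lower value at 6 months was built into its selection. IL1R1 differed by 0.32 (SE 0.12, adjusted p = 0.06) and passed without 6.5-week replicate 2 (0.40, adjusted p = 0.023) or 6-month replicates 2 (0.36, adjusted p = 0.0485) or 5 (0.39, adjusted p = 0.0221). IL36A thus had its order from highest to lowest level as unoperated 5-week, operated juvenile, unoperated 6-month and operated 6-month eyes, in which the first pair did not differ past the threshold and the middle pair was not compared.

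No member's response to surgery was shown to differ with age. In the test of the difference between the surgery effects, limma called 0 of 44 members, where 0.733% of all symbols were higher and 0.355% lower, and 7 members had an unadjusted p under 0.05. The smallest adjusted p, 0.164, was that of TNFRSF21 (0.28, 95% confidence interval 0.09 to 0.48), which became 0.0398 without operated 6-month replicate 2. CSF1R (−0.62, 95% confidence interval −1.16 to −0.08, adjusted p = 0.304) and IL32 (−1.51, −2.89 to −0.12, adjusted p = 0.341) had smaller rises at 6 months. IL36A (−0.42), IL16 (−0.50) and TNFRSF11A (−0.29) had more negative differences there, with adjusted p of 0.355 to 0.364. The interval was −0.55 to 0.11 for IL1R1, −0.21 to 0.89 for TNFRSF12A and −0.00 to 2.02 for TNFRSF25.

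Operated 6.5-week and operated 5-week eyes were not told apart in any member. With limma 0 of 44 passed, where 0.00771% of all symbols were higher and 0.00771% lower, 4 members had an unadjusted p under 0.05, and the smallest adjusted p was 0.352, for IL17RA. This comparison had 3 eyes in each group.

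Of the signalling genes downstream of these receptors (kinases, STAT factors, adaptors and NF-kappaB proteins), 53 of 58 listed were measured. Of them 19 rose and 6 fell at 6 months and 24 rose and 3 fell in juveniles, with median log2 differences of 0.17 and 0.24. Over all symbols 16.0% rose and 30.1% fell at 6 months and 16.5% rose and 20.8% fell in juveniles, with medians of −0.11 and −0.06. STAT3, the transcription factor of gp130 and IL10 receptors, rose from 61.1 ± 7.12 FPKM (SD, n = 7) to 122 ± 6.31 FPKM (SD, n = 6) at 6 months (log2 0.99, SE 0.07, adjusted p = 1.78e-10). CISH, a feedback inhibitor of STAT5, rose by 1.96 (SE 0.12, adjusted p = 5.56e-12), and NFKBIZ, a nuclear cofactor of NF-kappaB induced by IL1 and IL17, by 2.50 (SE 0.25, adjusted p = 2.12e-08). BCL3, a relative of NFKBIZ, rose by 2.27 (SE 0.14, adjusted p = 5.38e-12) and NFKB2 by 0.82 (SE 0.08, adjusted p = 1.92e-08). All of these rose in juveniles also, by 1.15, 1.83, 2.63, 2.56 and 1.05 in that order. SOCS3, the feedback inhibitor of gp130, was the only gene of the list whose surgery response differed with age (−0.92, SE 0.20, adjusted p = 0.0191), with the larger rise in juveniles.

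Summed over all 28 receptors, the level was 448.6 ± 18.5 FPKM in unoperated 5-week, 617.5 ± 67.5 in operated 5-week, 574.3 ± 37.5 in operated 6.5-week, 492.3 ± 31.1 in unoperated 6-month and 645.8 ± 42.5 FPKM in operated 6-month eyes. The 14 ligands summed to 141.4 ± 25.2, 254.9 ± 158, 186.2 ± 8.38, 178.1 ± 24.5 and 237.3 ± 70.2 FPKM in the same order (SD, n = 7, 3, 3, 7 and 6). Receptor sums of operated eyes lay above all unoperated eyes of their age class (574.4 to 697.4 against 445.8 to 549.8 FPKM at 6 months), while ligand sums overlapped (165.5 to 351.3 against 148.8 to 212.9 FPKM). Neither sum was scaled for the total FPKM of its library, which at 6 months was higher in every operated than in any unoperated library. Of the 3 receptors most abundant in unoperated eyes, IL11RA fell at 6 months, and IL6ST and TNFRSF21 did not pass the test there.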

How the data were processed

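The deposited iris table gives FPKM per RefSeq transcript and library, per the file headers. Tools listed, per the submitters' processing notes, are RSEM 1.2.12, Bowtie2 2.2.5, HISAT2 2.0.4 and HISAT, with no role stated. The build of the genome is not given in the sources. For each of the 16725 listed transcripts, 1 of 4 groups (both operated juvenile ages taken as 1) exceeds 1 FPKM throughout. The 23 cornea samples are not analysed here. No read counts were used, so depth is unknown and no counting error is given.

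FPKM were summed per symbol (60 transcripts for the 44 members). Of 1880 locus or date-like symbols, 198 were renamed by accession from RefSeq genes (assembly mOryCun1.1, used for names only). Differences in log2(FPKM + 0.5) were fitted with limma 3.58.1 in R 4.3.3 using trended, robust moderation of the variance, with 1 mean for each of 5 groups and no covariate, and p was adjusted by the Benjamini-Hochberg method over 12967 symbols. In the juvenile comparison the 5-week and 6.5-week operated means had equal weight. Shares of transcripts were compared by a two-sided exact permutation test with all 1716 permutations (924 for IL18BP in juveniles, where 1 unoperated library was listed at 0) in python 3.11.15. On simulated tables with 200 changed symbols of 12967, the fit found 93% of the 2-fold changes in the 6-month surgery comparison and 84% in the juvenile one. It found 77% for unequal surgery effects and 71% at 6.5 against 5 weeks. False calls were 4 of 196 and 8 of 188 for surgery (6 months, juvenile) and 18 of 207 and 14 of 197 for age (unoperated, operated). They were 14 of 189 for unequal effects and 13 of 180 at 6.5 against 5 weeks. Simulated noise was independent between symbols, unlike the data perhaps, and was normally distributed, without the outlying libraries described above. Far more symbols were called in the data (2078 higher and 3898 lower at 6 months) than were changed in the simulation. The shares found and the false calls thus need not hold for the data.

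The members, ligand and receptor classes, marker and signalling lists were chosen with earlier results of these data known. All members could be named. Of the signalling genes and of the family members under other symbols, those with the smallest p (up to 6 per list and comparison) and partner chains or ligands of a member were named. Alternatives were other added values (0.1 and 1), a minimum mean of 5 FPKM, 3 scalings, the most abundant transcript alone, a fit without trend or robust moderation, the compared groups alone, each operated juvenile age alone, libraries left out singly or together, and lens and photoreceptor marker covariates.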

Additional observations from a re-analysis of the deposited data

Results flagged for a closer look

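Each member was looked at in each group of 6 or 7 libraries, 132 sets of values in all, for a single library far from the others (the gap to its neighbour over the whole range, by Dixon's limits). Chance marks about 1 set in 20, or 6.6 of these, and 17 were marked. Of them 9 were the same library, unoperated 5-week replicate 6. There CSF1 had 11.81 FPKM beside 5.31 to 6.46 FPKM in the other 6 libraries, CSF2RB 2.32 beside 0.41 to 0.88, IL18BP 36.58 beside 0 to 9.98, IL2RG 2.21 beside 0.16 to 0.49 and IL32 8.11 beside 0.86 to 2.09 FPKM. IL4I1 had 4.82 FPKM there beside 0.24 to 0.88, TNFSF10 56.91 beside 19.03 to 26.32 and TNFSF4 22.83 beside 6.49 to 13.34 FPKM, while IL36A was the lowest of the group, at 10.58 beside 13.7 to 15.73 FPKM. The same library had the highest summed T and NK cell markers of its group (11.96 FPKM, group median 0.93), and the part of these cells was not tested.

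In unoperated 5-week replicate 2, TNFSF13B had 3.15 FPKM beside 0.24 to 1.16 in the others. In unoperated 6-month eyes CSF1R (38.94 beside 17.66 to 25.28 FPKM) and IL32 (15.86 beside 1.65 to 7.3 FPKM) stood out in replicate 7, which had the most T and NK cell marker RNA of that group (37.91 FPKM). IL18BP (31.17 beside 3.16 to 14.2 FPKM) and IL34 (3.78 beside 8 to 10.39 FPKM) stood out in replicate 3 and IL17RC (7.82 beside 11 to 12.41 FPKM) in replicate 4. Among operated 6-month eyes, replicate 4 had the highest CSF2RB (18.96 beside 6.32 to 10.34 FPKM) and IL1RN (9.39 beside 2.6 to 4.78 FPKM).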

How the results depend on the processing

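Of the calls, 18 of 26 at 6 months, 19 of 27 in juveniles, 1 of 11 between unoperated ages (IL36A) and 2 of 3 between operated ages (IL36A, TNFRSF12A) held in every alternative, and 0 reversed. No paired analysis was possible, because the labels give each library a number of its own and do not pair operated with unoperated eyes. Equal-sum scaling moved the median log2 difference of all symbols from −0.105 to −0.245 at 6 months (2078 higher and 3898 lower symbols became 1441 and 6122) and from −0.056 to −0.176 in juveniles (2142 and 2699 became 1546 and 4673), and member differences move with it. Median-ratio scaling gave 2784 and 2620 symbols at 6 months, upper-quartile scaling 2415 and 3245.

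With a mean of at least 5 FPKM, 12 members rose at 6 months and 14 in juveniles, 1 was lower between unoperated ages and 1 between operated ages, because fewer members were tested. Without libraries above 1000 FPKM of CRYAA, 3 members fell in juveniles (3 also with operated 5-week eyes alone), 1 was higher and 1 lower between unoperated ages, and 3 were higher and 1 lower between operated ages. Of all 12967 symbols, 1369 fell in juveniles in that setting. Between unoperated ages 279 were higher and 318 lower there, and between operated ages 457 and 846. With lens and photoreceptor covariates 2 members were higher between unoperated ages, where 711 of all symbols were. Between operated ages 3 were higher by median-ratio scaling and 2 with the most abundant transcript alone. There 1 was lower with 0.1 FPKM added, median-ratio scaling, the most abundant transcript, no trend, the compared groups alone or the covariates. Leaving out 1 library gave 15 to 21 higher at 6 months, 20 to 23 in juveniles, 4 to 11 between unoperated ages (the former without 6-month replicate 7, the latter without 5-week replicate 6), 1 to 3 higher and 1 to 3 lower between operated ages, 0 to 1 higher in the test of unequal surgery effects and 0 to 1 lower at 6.5 against 5 weeks.

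Signs of uncalled differences turned as follows, and the cause was not tested. At 6 months equal-sum scaling gave −0.04 for IL6ST, −0.07 for TNFRSF19, −0.10 for TNFRSF21 and −0.12 for TNFSF12, leaving out libraries rich in CRYAA −0.03 for IL6ST, the most abundant transcript −0.16 for TNFRSF19 and −0.09 for TNFRSF21, and leaving out 3 libraries rich in T cell markers −0.02 for TNFSF12. In juveniles IL16 was 0.21 with 6.5-week eyes alone and 0.01 without those 3 libraries, TNFRSF19 −0.09 by equal-sum scaling and −0.48 with its most abundant transcript (adjusted p = 0.0249), TNFRSF25 0.02 without libraries rich in CRYAA and 0.19 with 5-week eyes alone, and TNFSF12 0.01 without the 3 5-week libraries numbered after the 6-month ones in the labels (unoperated replicates 6 and 7 and operated replicate 3). Leaving out 1 library gave −0.01 to 0.12 for TNFRSF19 and −0.07 to 0.12 for TNFSF12 at 6 months, and −0.15 to 0.07 for IL16 and −0.18 to 0.18 for TNFRSF25 in juveniles. The number of reads behind each value is unknown, which limits all low levels.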
